A study of Mus musculus with 5 samples.

Results

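The proteasome genes of mouse are the genes with symbols Psma, Psmb, Psmc, Psmd, Psme, Psmf or Psmg followed by a number. Among 55450 annotated genes, 49 symbols matched this pattern, and the 48 with at least 50 UMIs (unique molecules, the count of captured transcripts) over 5 single-cell libraries are described here. The gene left out, Psmb11, which encodes the thymus-specific catalytic subunit, had fewer UMIs than that. The 48 genes were grouped by the place of their products in the particle. They comprise 8 genes of the alpha ring, 7 of the beta ring, 3 of the immunoproteasome, 9 of the base, 8 of the lid, 6 activators and inhibitors, and 7 assembly factors. The libraries hold wild-type Balb/C bone marrow progenitors from mice of 8 to 12 weeks of age, enriched on c-Kit and sorted as lineage-negative, c-Kit-positive cells. GMP, the granulocyte-monocyte progenitor, was gated as Sca-1-negative, CD34-positive and high for CD16/32 and has 3 libraries, whose labels do not say whether they came from separate animals. CMP, the common myeloid progenitor, was also Sca-1-negative and CD34-positive but low for CD16/32 and has 1 library. LMPP, the lymphoid-primed multipotent progenitor, carried Sca-1, CD34 and Flt3, with 1 library.

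The proteasome degrades proteins that carry ubiquitin chains. Its core is a stack of alpha and beta rings, of which the beta rings cut peptide bonds, and the alpha rings gate the entry. The regulatory particle that caps the core consists of a base, whose ATPases unfold the substrate, and a lid, which removes ubiquitin. Under interferon-gamma, and constitutively in many blood cells, the catalytic subunits encoded by Psmb5, Psmb6 and Psmb7 are replaced by those of Psmb8, Psmb9 and Psmb10. The resulting immunoproteasome is known for making peptides that are presented on class I molecules.

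The RefSeq promoters (GRCm38.p6, 250 bases before to 50 bases after the annotated start) of Psmb8, Psmb9 and Psmb10 of the immunoproteasome and of the constitutive Psmb5 and Psmb6 are shown because these genes encode the catalytic subunits whose levels and shares are compared between the populations; Psmb7, the other constitutive gene, was not matched. The coordinates are chr17:34197945-34198244 (plus strand) for Psmb8, chr17:34187281-34187580 (minus strand) for Psmb9, chr8:105938343-105938642 (minus strand) for Psmb10, chr14:54617946-54618245 (minus strand) for Psmb5 and chr11:70525107-70525406 (plus strand) for Psmb6. Capitals mark matches to 3 motifs, searched on both strands: the interferon-stimulated response element (GAAA, 2 bases of any kind, GAAA), the gamma-activated site TTCNNNGAA and the antioxidant response element TGACNNNGC.
Psmb8: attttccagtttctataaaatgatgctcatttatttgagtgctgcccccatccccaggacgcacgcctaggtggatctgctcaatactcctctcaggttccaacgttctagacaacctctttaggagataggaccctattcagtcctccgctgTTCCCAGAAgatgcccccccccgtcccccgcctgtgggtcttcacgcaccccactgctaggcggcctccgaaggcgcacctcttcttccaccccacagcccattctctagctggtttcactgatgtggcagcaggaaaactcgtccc
Psmb9: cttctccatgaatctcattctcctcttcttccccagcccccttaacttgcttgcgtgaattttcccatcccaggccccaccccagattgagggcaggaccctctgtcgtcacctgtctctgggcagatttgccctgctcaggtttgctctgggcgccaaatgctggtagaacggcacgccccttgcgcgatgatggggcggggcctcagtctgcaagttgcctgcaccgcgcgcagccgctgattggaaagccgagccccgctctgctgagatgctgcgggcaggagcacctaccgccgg
Psmb10: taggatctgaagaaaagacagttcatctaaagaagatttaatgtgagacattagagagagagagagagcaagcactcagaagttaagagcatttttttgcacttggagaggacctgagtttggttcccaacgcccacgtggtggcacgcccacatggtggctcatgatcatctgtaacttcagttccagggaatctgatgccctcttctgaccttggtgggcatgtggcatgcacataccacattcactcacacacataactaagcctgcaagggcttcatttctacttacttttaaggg
Psmb5: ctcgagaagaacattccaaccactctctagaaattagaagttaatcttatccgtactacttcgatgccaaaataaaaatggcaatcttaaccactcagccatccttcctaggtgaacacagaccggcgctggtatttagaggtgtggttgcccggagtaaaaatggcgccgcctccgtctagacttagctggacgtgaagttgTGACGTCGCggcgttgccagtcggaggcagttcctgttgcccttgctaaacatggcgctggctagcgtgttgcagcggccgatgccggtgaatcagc
Psmb6: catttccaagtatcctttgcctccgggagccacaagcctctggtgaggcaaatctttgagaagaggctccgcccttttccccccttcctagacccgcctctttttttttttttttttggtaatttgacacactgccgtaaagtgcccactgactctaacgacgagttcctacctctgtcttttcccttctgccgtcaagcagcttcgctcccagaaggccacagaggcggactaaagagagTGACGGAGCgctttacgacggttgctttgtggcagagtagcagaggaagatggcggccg
In Psmb8 a gamma-activated site began 97 bases before the start. An antioxidant response element began 47 bases before the start of Psmb5 and 9 bases before that of Psmb6. Neither motif, nor the interferon-stimulated element, was found in the windows of Psmb9 and Psmb10. In the GENCODE annotation Psmb8 and Psmb9 begin farther upstream, at chr17:34197721 and chr17:34187764, so their windows lie inside the annotated genes. Bases upstream of the windows were not searched. The table held promoters of 40 of the 48 genes (43 windows). The antioxidant response element was present in 6 of the 40, or 15.0%, against 13.99% of all 27025 genes with a promoter. For the gamma-activated site the figures were 3 of 40, or 7.5%, against 9.55% of all genes. The interferon-stimulated element occurred in 5 of 40, or 12.5% (Psmb3, Psmd4, Psmd9, Psme1 and Psmg4), against 3.99% of all genes. The CCAAT box, with the letters CCAAT on either strand, stood in 13 of 40 promoters, or 32.5%, against 41.06% of all genes, Psmb9 among them and not capitalised above. The NF-kB site (GGG, 3 bases of any kind, TTCC) was found in 3 of 40, or 7.5%, against 6.31% of all genes. No match to any of the 5 motifs overlapped a match to another. A match is a description of these letters and not a site of binding.

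After filtering, 8429, 9016 and 7334 cells of GMP replicates 1, 2 and 3 remained, with 6880 of CMP and 7511 of LMPP. The libraries summed to between 80059894 and 117890987 UMIs. Each pair of libraries shared between 13 and 33 barcodes. Fcgr3, which encodes one of the receptors stained in the CD16/32 gate, had 40.9, 35.8 and 46.5 CPM (UMIs of a gene in 1000000 UMIs of its library) in GMP, 10.3 CPM in CMP and 2.91 CPM in LMPP. Flt3 was at 4.68, 4.70 and 3.97 CPM in GMP, 47.9 CPM in CMP and 127 CPM in LMPP. The 6 granulo-monocytic marker genes summed to between 31780 and 35660 CPM in GMP, against 3743 CPM in CMP and 2698 CPM in LMPP, and all 6 were higher in every GMP library. The sum of 15 immediate early and heat shock genes ran from 2091 to 2958 CPM in GMP, against 7786 CPM in CMP and 11460 CPM in LMPP. Of these 15 genes, 13 were lower in all GMP libraries than in CMP and 12 lower than in LMPP. None of the 15 was at 0 in any library. Their part in the differences of the proteasome genes was not tested.

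Proteasome RNA was more abundant in GMP than in both other populations. The 48 genes together made up 9819, 10261 and 9701 CPM in GMP replicates 1, 2 and 3, against 8604 CPM in CMP and 7127 CPM in LMPP. The 3 GMP libraries lay close together and above both others. The alpha ring summed to 2737 ± 154 CPM in GMP (SD, n = 3), against 2030 CPM in CMP and 1802 CPM in LMPP, and the beta ring to 2290 ± 79.2 CPM in GMP, 1895 CPM in CMP and 1407 CPM in LMPP. The base stood at 1246 ± 22.2 CPM in GMP, 1156 CPM in CMP and 871 CPM in LMPP, and the lid at 1298 ± 37.0 CPM in GMP, 1200.1 CPM in CMP and 948 CPM in LMPP. Every GMP library exceeded both others in these 4 groups, whereas the activators and inhibitor, at 1096, 1007 and 951 CPM in GMP, overlapped CMP (994 CPM) and exceeded LMPP (901 CPM). Genes were compared by the edgeR quasi-likelihood test on UMIs summed per library, as log2 differences after TMM scaling, with a Benjamini-Hochberg adjusted p under 0.05 over all 19735 genes tested. In GMP against CMP, 23 of the 48 genes were higher and none lower, whereas 13.6% of all genes were higher and 19.1% lower. Their median log2 difference was 0.48, against -0.04 over all genes. In GMP against LMPP, 43 were higher and none lower, beside 25.8% of all genes higher and 31.4% lower, with a median of 1.08 against -0.09. All 23 genes called against CMP were among the 43 called against LMPP, a comparison that shares the GMP libraries. In sums over a library, fewer cells with a gene and less RNA per cell cannot be told apart.

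These differences depend on the scaling. Scaled by total UMIs in place of TMM factors, the median of all genes moved by -0.29 in GMP against CMP and by -0.60 in GMP against LMPP. Under that scaling 3 proteasome genes were higher and 1 lower in GMP against CMP, and 14 of the 48 had differences below 0. In GMP against LMPP 27 were higher and 1 lower, and 7 had differences below 0. The median of the 48 genes lay 0.52 (TMM) and 0.51 (total UMIs) above that of all genes in GMP against CMP, and 1.17 and 1.15 above it in GMP against LMPP. The spread comes from the 3 GMP libraries alone. Without GMP replicate 1, 37 genes were higher and 1 lower than in CMP, and without GMP replicate 2, 8 were higher. The 7 genes called against CMP under each omission were Psma6, Psma7, Psmb3, Psmb4, Psmc3, Psmg3 and Psmg4. In GMP against LMPP the count was between 41 and 46 under the 3 omissions. The genes higher in GMP than in CMP were Psma2 to Psma7 of the alpha ring, Psmb1 and Psmb3 to Psmb6 of the beta ring, the ATPase genes Psmc3 to Psmc6 of the base, Psmd6, Psmd7, Psmd12, Psmd13 and Psmd14 of the lid, and the assembly factors Psmg1, Psmg3 and Psmg4. Their log2 differences ranged between 0.45 and 0.96. The 5 genes that passed in neither comparison were Psma8, Psmb9, Psmd5, Psme2b and Psme4. All 48 genes were above the filter on low counts.

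**Figure D1:**
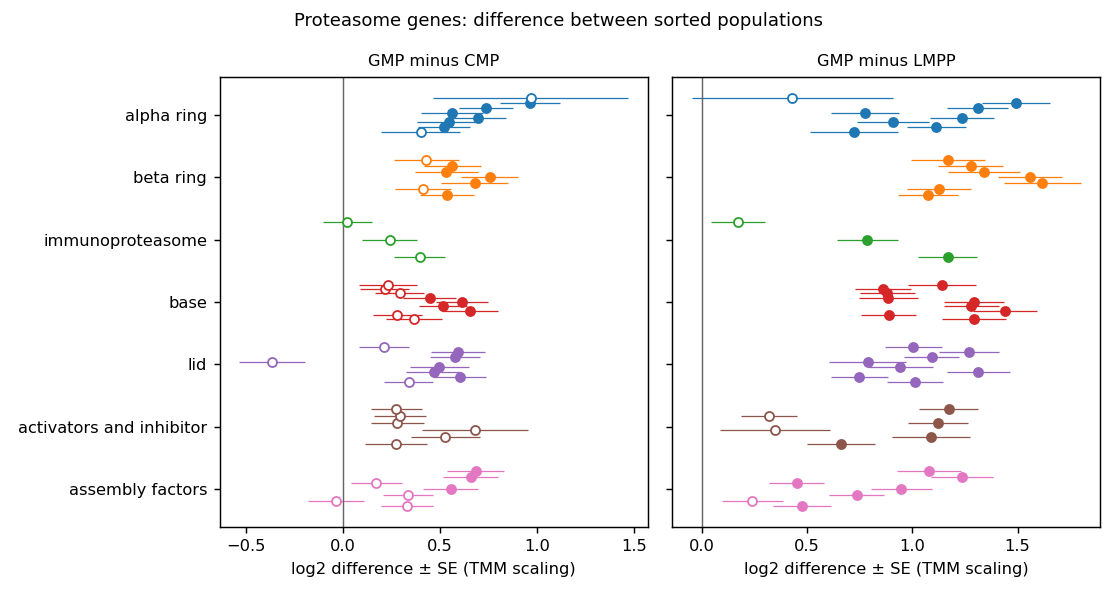
Log2 difference (x axis, TMM scaling, ± SE) of each of the 48 proteasome genes in GMP against CMP (left) and GMP against LMPP (right), by group of subunits; filled points passed an adjusted p of 0.05 and open points did not. All points of the right panel lie above 0, whereas with total UMIs as scaling 7 lie below 0, and in the left panel 14 instead of 2.

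Of the alpha ring, 6 of 8 genes were higher in GMP than in CMP and 7 of 8 higher than in LMPP. Of all genes, 13.6% and 25.8% were. Psma7, an alpha ring subunit, had 1158, 1153 and 1082 CPM in GMP, against 718 CPM in CMP and 617 CPM in LMPP. The GMP libraries lay well apart from both other populations. The log2 difference was 0.96 ± 0.16 (SE, adjusted p = 0.00263) against CMP and 1.49 ± 0.16 (adjusted p = 0.000186) against LMPP. Scaled by total UMIs, Psma7 remained higher by 0.66 against CMP (adjusted p = 0.00493) and by 0.87 against LMPP (adjusted p = 0.00065). Psma6 stood at 276, 323 and 306 CPM in GMP, against 223 CPM in CMP and 186 CPM in LMPP, differences of 0.74 and 1.31 that were both called. As for Psma7, all GMP libraries were above both others. Psma4 was at 355, 418 and 380 CPM in GMP, 293 CPM in CMP and 249 CPM in LMPP, with log2 differences of 0.69 and 1.24, both called, the difference against CMP only while GMP replicate 2 was kept. Its level is uncertain, since 21.2% of the 60-base words of its transcript ends also occur in another gene. Psma8, which encodes the alpha subunit known from testis, had only 1.77, 3.92 and 5.34 CPM in GMP, 2.30 CPM in CMP and 4.15 CPM in LMPP. The values of GMP overlapped both others, and it passed neither test.

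The beta ring, with the constitutive catalytic subunits, was higher against CMP in 5 of 7 genes and against LMPP in all 7. The shares of all genes were 13.6% and 25.8%. Psmb4, a structural subunit of that ring, had 334, 393 and 394 CPM in GMP, against 273 CPM in CMP and 194 CPM in LMPP. Each GMP library exceeded both others. The log2 differences were 0.75 ± 0.15 (adjusted p = 0.00574) and 1.56 ± 0.15 (adjusted p = 0.000119), and both held under total UMIs. Psmb3, likewise structural, showed 486, 450 and 402 CPM in GMP, 345 CPM in CMP and 223 CPM in LMPP. Its log2 difference of 1.62 ± 0.18 against LMPP (adjusted p = 0.00023) was the largest of the 48 genes in that comparison. The value of Psmb3 is uncertain because 53.7% of its 60-base end words occur in other genes. Psmb1, also without catalytic activity, was at 448, 480 and 453 CPM in GMP, 392 CPM in CMP and 335 CPM in LMPP, with called differences of 0.54 (lost without GMP replicate 2) and 1.07.

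The 9 genes of the base, which encode the ring of ATPases and the subunits that hold it and bind ubiquitin, were all higher in GMP than in LMPP, and 4 of them higher than in CMP. Psmc3, an ATPase, had 231, 228 and 209 CPM in GMP, against 175 CPM in CMP and 126 CPM in LMPP. Its GMP values did not overlap the others, with log2 differences of 0.65 (adjusted p = 0.0109) and 1.44 (adjusted p = 0.000174). Psmd4, which encodes a ubiquitin receptor, differed in pattern, with 211, 194 and 183 CPM in GMP, 207 CPM in CMP and 136 CPM in LMPP. GMP overlapped CMP and exceeded LMPP, and only the difference against LMPP, 1.14, passed (0.23 against CMP). In the lid, 5 of 8 genes were higher against CMP and all 8 against LMPP. For lid and base alike, the shares of all genes were 13.6% against CMP and 25.8% against LMPP. Psmd7, the partner of the lid's deubiquitinase, was at 341, 368 and 343 CPM in GMP, 287 CPM in CMP and 223 CPM in LMPP, differences of 0.59 and 1.27 that were both called, that against CMP only with GMP replicate 2 in the fit. Psmd8 had 203, 206 and 200.1 CPM in GMP, 217 CPM in CMP and 155 CPM in LMPP. It lay below CMP in every GMP library, yet its TMM-scaled difference was 0.21 (not called), and it was called only against LMPP, at 1.01. Psmd3 went the other way. It had 62.4, 49.7 and 52.2 CPM in GMP, 87.3 CPM in CMP and 48.7 CPM in LMPP. All GMP libraries lay below CMP, with a log2 difference of -0.37 ± 0.17 that missed the threshold (adjusted p = 0.138) and passed without GMP replicate 1 (-0.49, adjusted p = 0.00868) and with total UMIs (-0.67, adjusted p = 0.0105). Against LMPP Psmd3 was higher by 0.79, a call that was lost with total UMIs (0.17, adjusted p = 0.378).

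None of the 6 activator and inhibitor genes passed against CMP, where 13.6% of all genes were higher, and in so few genes this is near that share. Against LMPP 4 passed, all higher, where 25.8% of all genes were higher. Psme1 and Psme2 encode the 2 chains of the interferon-induced cap that opens the core without ATP. Psme1 had 677, 625 and 586 CPM in GMP, 645 CPM in CMP and 610 CPM in LMPP. The GMP values straddled both other populations, although the TMM-scaled difference against LMPP, 0.66, passed. With total UMIs it was 0.04. Psme2 stood at 319, 276 and 256 CPM in GMP, 244 CPM in CMP and 205 CPM in LMPP, with differences of 0.53 (adjusted p = 0.0548) and 1.09 (called). Its reads cannot be told fully from those of its copy Psme2b, since 62.3% of its end words occur there. Of the 7 assembly factors, 3 were higher against CMP and 6 against LMPP, beside the same 13.6% and 25.8% of all genes. Psmg4, a chaperone of the alpha ring, was at 182, 174 and 163 CPM in GMP, 133 CPM in CMP and 126 CPM in LMPP. Those GMP values exceeded both others, with differences of 0.68 and 1.08. Psmg2, part of another such chaperone, had 70.2, 73.0 and 67.7 CPM in GMP, 77.1 CPM in CMP and 78.8 CPM in LMPP. All GMP libraries lay below both others in CPM. Its TMM-scaled differences were 0.17 (not called) and 0.45 (called), and the second was -0.17 with total UMIs and not called without GMP replicate 2.

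Of the 3 immunoproteasome genes, 0 were called in GMP against CMP, where 13.6% of all genes were higher, and 2 were higher in GMP against LMPP, where 25.8% were. Their 3 log2 differences against CMP were all above 0 with TMM scaling, but with total UMIs Psmb8 was at -0.07 and Psmb9 at -0.28. Whether the 3 differ from the other 45 genes was not tested. Psmb8, the immune counterpart of Psmb5 with chymotrypsin-like activity, had 569, 629 and 578 CPM in GMP, against 619 CPM in CMP and 525 CPM in LMPP. The GMP libraries straddled CMP and lay above LMPP. The log2 difference was 0.24 ± 0.14 (adjusted p = 0.231) against CMP and 0.79 ± 0.15 (adjusted p = 0.00245) against LMPP, which was 0.17 (adjusted p = 0.262) with total UMIs. Psmb9, the counterpart of Psmb6, was at 111, 127 and 121 CPM in GMP, against 146 CPM in CMP and 163 CPM in LMPP. In CPM every GMP library was below CMP and LMPP. After TMM scaling its differences were 0.02 ± 0.13 and 0.17 ± 0.13, neither of which passed, and with total UMIs the difference against LMPP was -0.44 (adjusted p = 0.0164), so its direction rests on the scaling. Psmb10, the counterpart of Psmb7, had 167, 161 and 161 CPM in GMP, 153 CPM in CMP and 111 CPM in LMPP. All GMP values were above both, with log2 differences of 0.40 (adjusted p = 0.0526) and 1.17 (adjusted p = 0.000286).

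Among the constitutive counterparts, Psmb5 stood at 303, 290 and 255 CPM in GMP, 242 CPM in CMP and 171 CPM in LMPP. Its differences of 0.53 (adjusted p = 0.0389) and 1.34 (adjusted p = 0.000403) were both called, the first only with GMP replicate 2 in the fit. The level of Psmb5 is uncertain, since 50.3% of its end words occur in another gene. Psmb6 had 363, 355 and 330 CPM in GMP, 292 CPM in CMP and 221 CPM in LMPP, with called differences of 0.56 (adjusted p = 0.0211, lost without GMP replicate 2) and 1.28. Psmb7 was at 69.1, 92.7 and 89.3 CPM in GMP, 76.7 CPM in CMP and 56.9 CPM in LMPP. Its GMP values overlapped CMP (0.43, adjusted p = 0.0878) and exceeded LMPP (1.17, adjusted p = 0.000895).

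**Figure D2:**
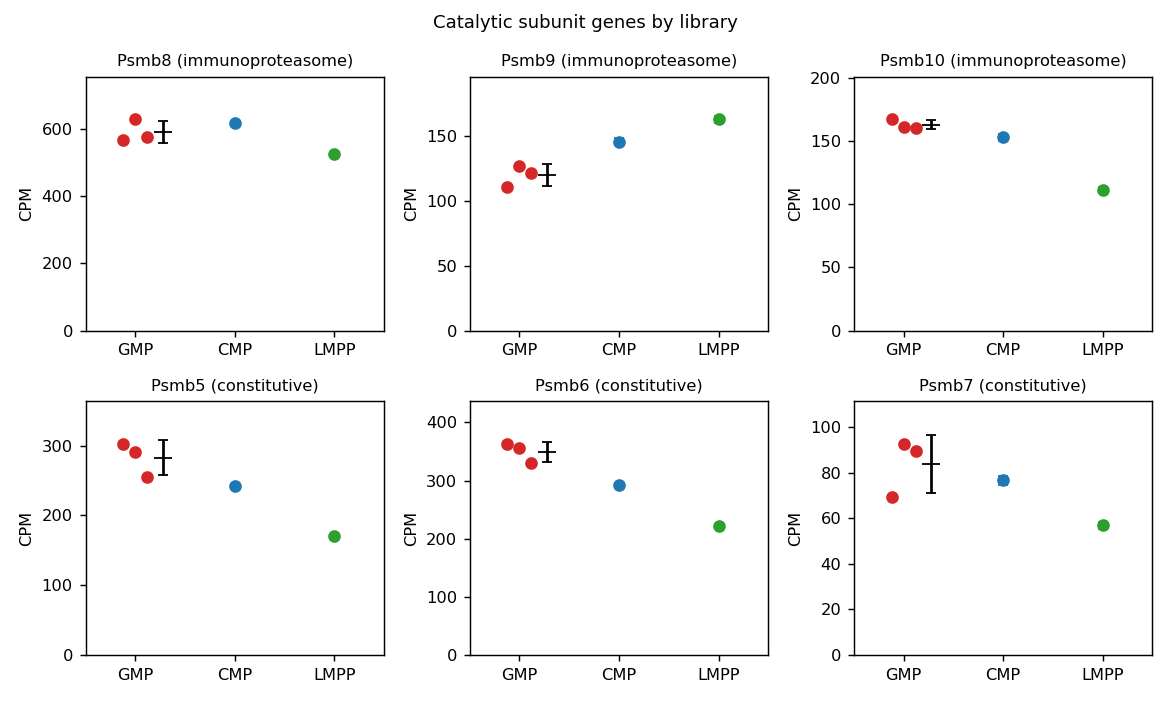
CPM of the 3 immunoproteasome genes (upper row) and their constitutive counterparts (lower row) in GMP, CMP and LMPP; points are libraries, black bars the GMP mean ± SD, and bars on single libraries the 95% counting interval. Psmb9 alone of the 6 is below CMP and LMPP in all GMP libraries, and Psmb5, Psmb6 and Psmb10 are above both in all of them.

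CMP and LMPP have 1 library each, which allows no test, and are set side by side by the ratio of their CPM with an exact 95% interval that covers counting error only. The ratio was above 1 for 39 of the 48 genes. Reaching at least 1.5-fold higher were 5 genes, where 9.9% of 19720 genes did, and 2 were lower by as much, where 38.0% of all genes were. The median log2 ratio was 0.27, against -0.33 over all genes. Among the genes higher in CMP, Psmd3 had the highest ratio, with 87.3 CPM in CMP and 48.7 CPM in LMPP, a ratio of 1.80 (interval 1.73 to 1.87). The other 4 were Psmb3 (ratio 1.55), Psmc1 (1.53), Psmd4 (1.51) and the inhibitor gene Psmf1 (1.51). The 2 lower genes were Psma8 (ratio 0.554) and Psme2b (0.640), both under 5 CPM in these libraries. Of the 3 immunoproteasome genes Psmb9 had a ratio below 1, at 0.895 (interval 0.873 to 0.917), while Psmb8 was at 1.18 and Psmb10 at 1.38.

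The 3 immunoproteasome genes together summed to 847, 918 and 860 CPM in GMP, against 918 CPM in CMP and 799 CPM in LMPP. The remaining 45 genes summed to 8972, 9343 and 8842 CPM in GMP, against 7686 CPM in CMP and 6328 CPM in LMPP. Of all UMIs of the 6 catalytic genes, the immunoproteasome genes held 53.5%, 55.4% and 56.0% in GMP (mean 55.0% ± 1.31, SD, n = 3), 60.04% in CMP (exact 95% interval 59.8 to 60.3%) and 64.0% in LMPP (63.7 to 64.3%). Over whole libraries the 3 populations did not overlap in this share, with 1 library each for CMP and LMPP. The share, and the pair of Psmb8 and Psmb5 below, carry the uncertainty of Psmb5, since 50.3% of its end words occur in another gene. Transcripts of different genes are captured with different efficiency, so the share is read only between samples and does not give the make-up of the particle. By pairs, Psmb9 held 23.4%, 26.3% and 26.9% of the UMIs of Psmb9 and Psmb6 in GMP, 33.2% in CMP and 42.4% in LMPP. Psmb8 held 65.3%, 68.4% and 69.4% of those of Psmb8 and Psmb5 in GMP, 71.9% in CMP and 75.4% in LMPP. The share of Psmb10 in the pair with Psmb7 showed no such order, with 70.8%, 63.5% and 64.3% in GMP, 66.7% in CMP and 66.2% in LMPP. No test was made of a share, and it is independent of the scaling.

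**Figure D3:**
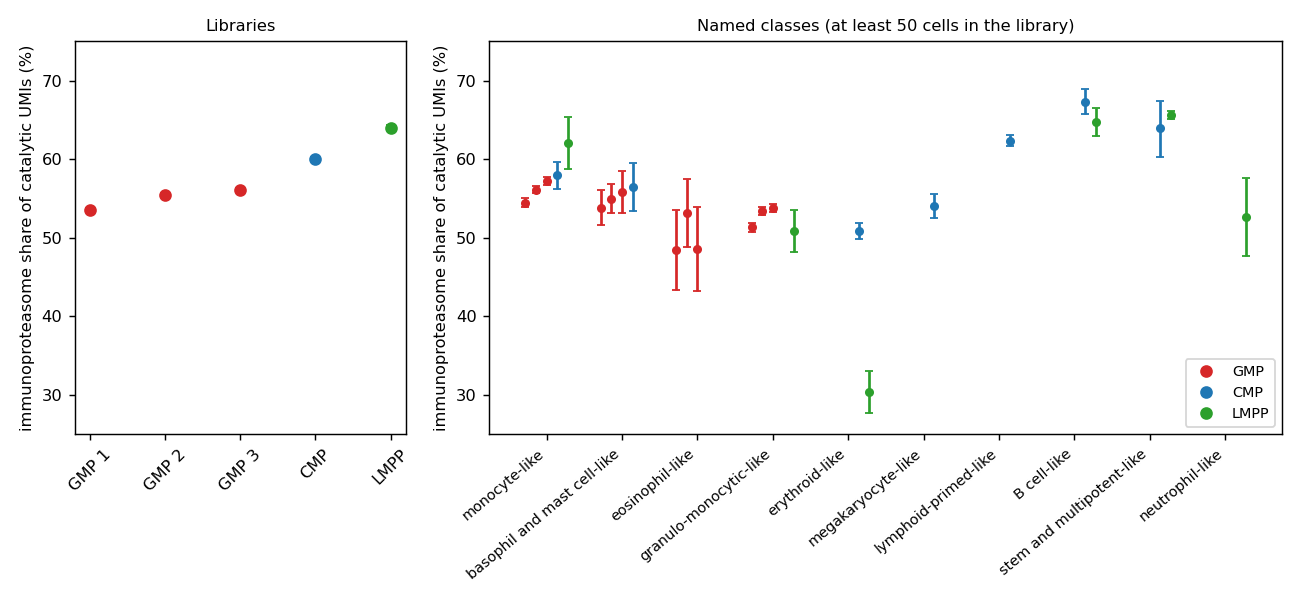
Immunoproteasome share of the UMIs of the 6 catalytic genes (y axis, percent, from 25 to 75) by library (left) and by named class with at least 50 cells in a library (right), with exact 95% intervals for counting error. GMP libraries lie at 53.5 to 56.0%, CMP at 60.04% and LMPP at 64.0%, and the erythroid-like cells of LMPP lie lowest of all classes shown, at 30.3%.

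Cells were clustered on a random part of their UMIs, with the proteasome genes kept out of the variable genes, and clusters were named from marker genes. Levels below come from the other part of the UMIs. GMP consisted of granulo-monocytic-like and monocyte-like cells to 71.5%, 70.9% and 77.3%. CMP held unnamed cells (33.6%), lymphoid-primed-like cells (29.4%), erythroid-like cells (20.1%) and few monocyte-like cells (2.86%). Unnamed cells made up 20.03%, 18.6% and 15.9% of GMP replicates 1, 2 and 3. LMPP was stem and multipotent-like to 88.9%. Of these LMPP cells, 1453 were in a cluster led by Aspm and Mki67, with 0 markers of that class among its 10 leading genes. At Leiden resolution 0.5, 69.9% of LMPP was stem and multipotent-like and 20.9% B cell-like. The lymphoid-primed-like class rests on 5 raised markers, of which 0 were among the 10 leading genes of its cluster, led by Socs3, Nr4a1, Cdkn1a and Dusp2. The immunoproteasome share was 62.4% (interval 61.7 to 63.1%) in the lymphoid-primed-like cells of CMP and 67.3% (65.7 to 68.9%) in its B cell-like cells. It was 65.6% (65.2 to 66.1%) in the stem and multipotent-like cells of LMPP. Lower shares outside GMP were seen in the megakaryocyte-like cells of CMP with 54.0% (52.6 to 55.5%), and in LMPP the neutrophil-like cells with 52.7% (47.7 to 57.6%) and the granulo-monocytic-like cells with 50.8% (48.2 to 53.5%). In erythroid-like cells the share was 50.8% (49.8 to 51.9%) in CMP and 30.3% (27.7 to 33.0%) in LMPP, where that class had 100 cells. The intervals of the erythroid-like class in CMP and in LMPP did not overlap, and no class outside GMP has a replicate. In monocyte-like cells the share was 54.5%, 56.1% and 57.2% (56.7 to 57.7%) in GMP replicates 1, 2 and 3. It was 58.0% (56.3 to 59.7%) in those of CMP, an interval that overlapped that of GMP replicate 3. In those of LMPP it was 62.1% (58.7 to 65.4%), from 52 cells. Granulo-monocytic-like cells of GMP had shares of 51.3%, 53.4% and 53.8%, and eosinophil-like cells averaged 50.1% ± 2.68 (SD, n = 3).

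Within cells of the same name, none of the 48 genes passed in GMP against CMP. The class used was the monocyte-like class, the most frequent in CMP of the named classes that reach 100 cells in CMP and in each GMP library. It had 2895, 3129 and 2887 cells in GMP and 197 in CMP. It is made of 2 clusters. The cluster led by Ms4a6c, Ly86 and F13a1 held 1718, 1554 and 1594 of these GMP cells and 166 of the CMP cells, and the other, led by F13a1, Ly86 and Ms4a6c and with Hist1h1b among its leading genes, held 1177, 1575 and 1293 GMP cells and 31 CMP cells. The median of UMIs per cell was 11669, 13806 and 15751 in GMP and 19078 in CMP, and the part of depth was not tested. Within this class the 48 genes summed to 10369, 10795 and 10070 CPM in GMP, against 10634 CPM in CMP, so that GMP lay on both sides of CMP. None of the 48 was higher or lower by the edgeR test, where 0.614% of 14008 genes were higher and 0.443% lower. By edgeR, 2 had an unadjusted p under 0.05, and the DESeq2 Wald test also called 0. The median difference was 0.03, equal to that of all genes (0.03). Psma7 had 1365, 1350 and 1252 CPM in GMP and 1211 CPM in CMP, a log2 difference of 0.26 (95% interval -0.12 to 0.64). Psmb8 and Psmb9 differed by 0.02 (-0.33 to 0.37) and 0.01 (-0.33 to 0.35). The SE of the 48 genes had a median of 0.17 in this class and 0.14 between whole libraries. In simulated counts for this class, the test called 12% of genes changed 1.5-fold and 51% of genes changed 2-fold. For the whole libraries of GMP and CMP it called 16% and 69%. A missing call therefore does not show equal levels. Whether the differences in this class and between whole libraries are unequal was not tested. Psmd3 again had the lowest value, with 65.9, 50.3 and 52.0 CPM in GMP and 102 CPM in CMP (-0.72, adjusted p = 0.15). It passed without GMP replicate 1 (-0.89, adjusted p = 4.05e-07) and without a filter on low counts (-0.70, adjusted p = 0.011). Psma6 was at 265, 318 and 296 CPM in GMP and 244 CPM in CMP (0.39, adjusted p = 0.34), and it too passed only without GMP replicate 1 (0.43, adjusted p = 0.0336).

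Within GMP, the named classes with at least 50 cells in each library were compared with the granulo-monocytic-like cells, with the library as a block. These cells form 2 clusters, led by Vcam1, Pglyrp1 and Clec4a2 and by Pglyrp1, Wfdc21 and Ms4a3. The neutrophil markers Cebpe (first cluster) and Fcnb (second) were among their leading genes. In a finer clustering (Leiden resolution 2) a neutrophil-like cluster led by Wfdc21, Fcnb, S100a9 and S100a8 held 797, 601 and 408 cells of GMP replicates 1, 2 and 3. In monocyte-like cells, 31 of the 48 genes passed in neither direction, and the log2 differences of the others lay between -0.34 and 0.66. The 48 genes summed to 10411 ± 364 CPM in monocyte-like cells and 9760 ± 316 CPM in granulo-monocytic-like cells (SD, n = 3 each). After TMM scaling 6 of 48 were higher and 11 lower, beside 17.2% of 13455 genes higher and 20.8% lower, shares near those of the proteasome genes, and the median was -0.01, as for all genes (-0.01). The split turned with the scaling. With total UMIs, 22 were higher and 4 lower. Without the library block 1 was higher and 0 lower, and without GMP replicate 3 the count of lower genes was 5.

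Psmb9 had 121, 136 and 131 CPM in monocyte-like cells, against 99.9, 114 and 111 CPM in granulo-monocytic-like cells of GMP replicates 1, 2 and 3. It was higher in monocyte-like cells of each library, by 0.15 ± 0.04 on the log2 scale (adjusted p = 0.00035). Psmb10 was at 185, 176 and 173 CPM in monocyte-like cells, against 151, 150 and 148 CPM in granulo-monocytic-like cells, a difference of 0.15 ± 0.04 (adjusted p = 0.00193) without overlap. Psmb8 stood at 606, 660 and 604 CPM in monocyte-like cells, against 523, 588 and 537 CPM in granulo-monocytic-like cells. It was higher in each library, but its TMM-scaled difference of 0.08 did not pass (adjusted p = 0.194). Psma7 had 1365, 1350 and 1252 CPM in monocyte-like cells and 1083, 1078 and 1001 CPM in granulo-monocytic-like cells (0.22 ± 0.05, adjusted p = 6.68e-05, not called without GMP replicate 3). The other higher genes were Psme2b (0.66), whose reads are shared with Psme2, Psmd3 (0.14) and Psme3 (0.13). Psmd3 was called in 1 of the 3 omissions of a library and Psme3 in 0 of them.

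Of the 7 assembly factors, 5 were lower in monocyte-like cells (Psmd9, Psmd10, Psmg1, Psmg2 and Psmg3), beside 20.8% of all genes. Psmd9 was called in 1 and Psmd10 in 2 of the 3 omissions of a library. Without the library block, 0 of the 48 genes were lower. Whether the assembly factors differ from the other proteasome genes was not tested. Psmg1, which forms the first chaperone of the alpha ring together with Psmg2, had 44.3, 53.5 and 51.2 CPM in monocyte-like cells, against 51.7, 62.5 and 61.8 CPM in granulo-monocytic-like cells. It was lower in each library, by -0.34 ± 0.04 (adjusted p = 2.23e-14). Psmg2 was at 64.8, 70.6 and 64.1 CPM in monocyte-like cells and 73.6, 76.6 and 71.0 CPM in granulo-monocytic-like cells (-0.25 ± 0.04, adjusted p = 7.04e-09). Psmd7 of the lid showed 311, 346 and 310 CPM in monocyte-like cells and 356, 389 and 366 CPM in granulo-monocytic-like cells (-0.31 ± 0.05, adjusted p = 6.03e-10). Psma6 had 265, 318 and 296 CPM in monocyte-like cells, against 297, 340 and 326 CPM in granulo-monocytic-like cells (-0.23 ± 0.05, adjusted p = 2.91e-06). These 4 genes were also the 4 called lower with total UMIs, and each was called under every omission of a library. Psmg3, another chaperone gene, fell by 0.16 (adjusted p = 0.000649), but not without GMP replicate 3.

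**Figure D4:**
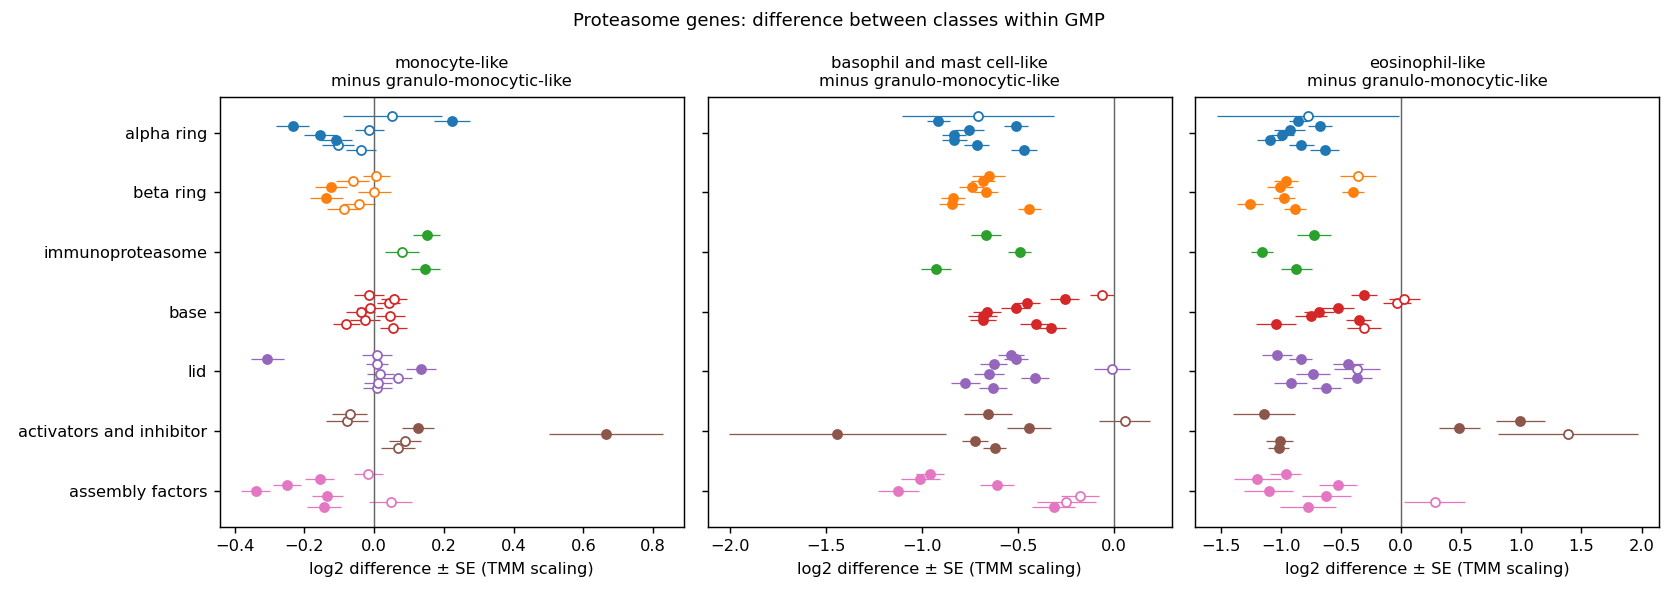
Log2 difference (x axes, TMM scaling, ± SE) of the 48 proteasome genes in monocyte-like (left), basophil and mast cell-like (middle) and eosinophil-like cells (right), each against granulo-monocytic-like cells within GMP; filled points passed an adjusted p of 0.05 and open points did not. The left panel spreads about 0, while 47 of 48 points in the middle and 43 of 48 in the right panel lie below 0 (40 and 32 with total UMIs as scaling).

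Basophil and mast cell-like cells had less proteasome RNA than granulo-monocytic-like cells in every group of subunits. The 48 genes summed to 7867 ± 394 CPM in basophil and mast cell-like cells, against 9760 ± 316 CPM in granulo-monocytic-like cells (SD, n = 3 each). Of the 48, 42 were lower and none higher, where 25.9% of 13455 genes were lower and 24.3% higher, and the median was -0.65, against 0.00 for all genes. With total UMIs, 32 were lower and 3 higher (Psmd3, Psmd4 and Psme4), with all genes moved by 0.32. The median of the 48 lay 0.65 below that of all genes by TMM and 0.64 below it by total UMIs. These cells were shallower, with a median of UMIs 0.474 times that of their libraries, and the part of depth was not tested. Psmg1 fell farthest among the assembly factors, with 28.5, 32.9 and 43.3 CPM in basophil and mast cell-like cells, against 51.7, 62.5 and 61.8 CPM in granulo-monocytic-like cells (-1.12 ± 0.11, adjusted p = 2.64e-24). Psmg3 had 44.1, 37.7 and 44.1 CPM in basophil and mast cell-like cells and 58.3, 68.6 and 69.7 CPM in granulo-monocytic-like cells (-1.01). Psmg4 was at 113, 114 and 109 CPM in basophil and mast cell-like cells and 183, 174 and 159 CPM in granulo-monocytic-like cells (-0.96).

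All 3 immunoproteasome genes were lower in basophil and mast cell-like cells. Psmb10 had 104, 101 and 91.7 CPM in basophil and mast cell-like cells, against 151, 150 and 148 CPM in granulo-monocytic-like cells (-0.93 ± 0.08, adjusted p = 5.17e-32). Psmb9 was at 72.5, 97.8 and 84.9 CPM in basophil and mast cell-like cells and 99.9, 114 and 111 CPM in granulo-monocytic-like cells (-0.66). Psmb8 stood at 535, 491 and 462 CPM in basophil and mast cell-like cells and 523, 588 and 537 CPM in granulo-monocytic-like cells. The groups overlapped in CPM, and its log2 difference was -0.49 ± 0.06 (adjusted p = 9.77e-16). Psmb5, Psmb6 and Psmb7 were lower too, and the immunoproteasome share was 54.9% ± 0.99 in basophil and mast cell-like cells and 52.8% ± 1.33 in granulo-monocytic-like cells (SD, n = 3 each). The 6 genes that did not pass were Psma8, Psmd3, Psmd4, Psmd5, Psmd9 and Psme4. Psme2b had the lowest value, -1.44 (adjusted p = 0.0238), from 0, 0.877 and 1.70 CPM in basophil and mast cell-like cells and 2.26, 1.98 and 1.84 CPM in granulo-monocytic-like cells, and its call was lost without GMP replicate 1 or 2.

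Eosinophil-like cells, with 110, 156 and 110 cells in the GMP libraries, also had less proteasome RNA in sum. After TMM scaling, 2 activator genes, Psme4 and Psme3, were called higher. Psme4 was called under every omission of a GMP library, whereas Psme3 was not. The 48 genes summed to 8284 ± 569 CPM in eosinophil-like cells, against 9760 ± 316 CPM in granulo-monocytic-like cells (SD, n = 3 each). The base went the other way in CPM. It summed to 1428, 1274 and 1295 CPM in eosinophil-like cells and 1181, 1226 and 1193 CPM in granulo-monocytic-like cells of GMP replicates 1, 2 and 3. After TMM scaling, 6 of the 9 base genes were lower and 0 higher, so their direction rests on the scaling. Of the 48, 38 were lower and 2 higher, where 17.2% of all genes were lower and 10.5% higher, with a median of -0.76 against -0.03. With total UMIs, which moved the median of all genes by 0.53, 20 were lower and 6 higher. The median of the 48 was 0.73 below that of all genes by TMM and 0.72 below it by total UMIs. The median of UMIs per cell was 0.363 times that of the libraries, and its part was not tested. Of the 42 genes lower in basophil and mast cell-like cells and the 38 lower in eosinophil-like cells, 36 were shared, in comparisons that share the granulo-monocytic-like cells.

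Psmb2, a structural beta subunit, had 191, 183 and 175 CPM in eosinophil-like cells, against 308, 303 and 284 CPM in granulo-monocytic-like cells (-1.26 ± 0.11, adjusted p = 1.17e-27). Psmb8 was at 310, 407 and 356 CPM in eosinophil-like cells and 523, 588 and 537 CPM in granulo-monocytic-like cells (-1.16 ± 0.09, adjusted p = 5.88e-34). For both genes the 3 libraries of each class lay apart. Psmg3 stood at 59.6, 40.7 and 24.6 CPM in eosinophil-like cells and 58.3, 68.6 and 69.7 CPM in granulo-monocytic-like cells (-1.20), an overlap in CPM. Psmg1 was at 32.8, 36.2 and 52.2 CPM in eosinophil-like cells and 51.7, 62.5 and 61.8 CPM in granulo-monocytic-like cells (-1.10), also with overlap. Psmf1, the gene of an inhibitor of the core, had 14.9, 24.9 and 27.6 CPM in eosinophil-like cells and 32.9, 35.7 and 34.6 CPM in granulo-monocytic-like cells (-1.14). The genes called higher were both activators. Psme4, which encodes a large single-chain activator of the core, had 50.7, 74.7 and 55.2 CPM in eosinophil-like cells, against 19.3, 21.9 and 22.1 CPM in granulo-monocytic-like cells. The classes did not overlap, with a log2 difference of 0.99 ± 0.20 (adjusted p = 1.09e-05). Psme3, which encodes a nuclear activator, was at 86.4, 86.0 and 67.5 CPM in eosinophil-like cells and 33.7, 40.5 and 44.6 CPM in granulo-monocytic-like cells (0.48 ± 0.17, adjusted p = 0.0203). Its call was lost without GMP replicate 1 or 2, and in cells with little S and G2M phase RNA its difference was -0.41 (adjusted p = 0.52). Psme4 was called under every omission and in that subset.

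**Figure D5:**
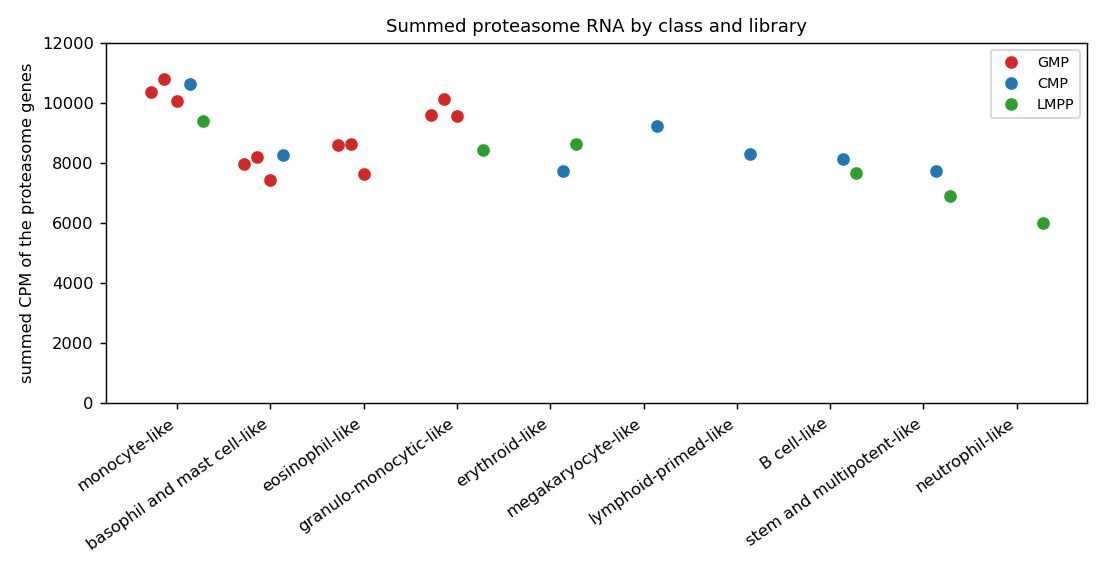
Summed CPM of the 48 proteasome genes (y axis) by named class, each point a library in which the class had at least 50 cells, in GMP, CMP and LMPP. Monocyte-like cells of GMP lie at 10070 to 10795 CPM and of CMP at 10634 CPM, and basophil and mast cell-like cells of GMP at 7431 to 8199 CPM.

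Other genes of the pathway, from lists drawn up by function, went both ways. Of 22 further proteasome parts and partners, 6 were higher and 3 lower in GMP than in CMP, where 13.6% of all genes were higher and 19.1% lower, and 11 were higher and 4 lower than in LMPP, where 25.8% of all genes were higher and 31.4% lower. Sem1, a small subunit of the lid, had 810, 750 and 748 CPM in GMP, against 457 CPM in CMP and 449 CPM in LMPP (1.06 and 1.39, both called). Pomp, the maturation factor of the core, was at 431, 417 and 401 CPM in GMP, 360 CPM in CMP and 293 CPM in LMPP (0.52 and 1.12, both called). Adrm1, a ubiquitin receptor, stood at 112, 102 and 103 CPM in GMP, 109 CPM in CMP and 68.5 CPM in LMPP, and was called against LMPP (1.24) but not CMP (0.26). In basophil and mast cell-like against granulo-monocytic-like cells, 6 of the 22 were higher and 9 lower, where 24.3% of all genes were higher and 25.9% lower. In eosinophil-like cells 6 were higher and 7 lower, where 10.5% of all genes were higher and 17.2% lower. Sem1 (-1.24) and Pomp (-0.87) were lower in basophil and mast cell-like than in granulo-monocytic-like cells, and also in eosinophil-like cells (-0.90 and -0.73).

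Of 6 ubiquitin genes and activating enzymes, 0 were higher and 1 lower against CMP, and 2 higher and 1 lower against LMPP, which in so few genes is near those shares of all genes. Uba1, the main activating enzyme, was called against LMPP (0.98), while Uba6, the alternative enzyme, was lower there (-0.84), at 7.05, 12.3 and 12.7 CPM in GMP and 29.3 CPM in LMPP. Rps27a, which encodes ubiquitin fused to a ribosomal protein, differed from LMPP by 0.71 (called). Of 18 genes of class I antigen presentation and its regulators, 5 were higher and 8 lower against CMP, and 5 higher and 10 lower against LMPP, beside the same 13.6% and 19.1%, and 25.8% and 31.4%, of all genes. H2-T23, a nonclassical class I gene, had 6.82, 6.85 and 6.55 CPM in GMP, against 42.8 CPM in CMP and 76.0 CPM in LMPP (-2.36 and -2.88, both called). Calr, a chaperone of the endoplasmic reticulum, was higher by 1.85 and 2.87. B2m, the light chain of class I, was at 273, 400 and 399 CPM in GMP, 607 CPM in CMP and 772 CPM in LMPP, differences of -0.46 and -0.50 that did not pass. In basophil and mast cell-like cells H2-T23 was higher by 2.82 than in granulo-monocytic-like cells. Of the 18 genes, 7 were higher and 5 lower there, where 24.3% of all genes were higher and 25.9% lower.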

How the data were processed

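UMI counts per gene and barcode of 5 libraries (10x Genomics single cell 3' chemistry, v3) were used as deposited by the authors. Cell Ranger 3.1.0, Seurat 3.1.1 and mm10 are named in the submitters' processing notes, whereas cellranger 6.1.1 is named per the file headers. Barcodes with at least 500 genes, at least 1000 UMIs and at most 10% mitochondrial UMIs were kept, and simulated-doublet scores removed 0.8% per 1000 barcodes. Python 3.11.15, scanpy 1.11.5 and leidenalg 0.10.2 served for clustering (2000 variable genes without the proteasome genes, 30 components, 20 neighbours, Leiden resolution 1). Cells' UMIs were divided at random into 2 parts, the first for clusters and the second for levels and tests. A cluster was named where at least 3 markers of a class were raised at least 1.5-fold and reached at least 20 CPM. A marker of the class also had to be among the 10 leading genes, or most of its detected markers had to be raised. Very shallow clusters without a marker among their leading genes stayed unnamed.

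UMIs were summed per library, or per class and library, and fitted with edgeR 4.0.16 (TMM, prior count 2, quasi-likelihood test, Benjamini-Hochberg adjusted p under 0.05). All 5 libraries entered the library fit, whose 2 residual degrees of freedom come from GMP, so CMP and LMPP, with a single library each, take the spread of GMP as their own. The p-values measure the spread between the GMP libraries, which may be technical. Classes within GMP come from the same libraries, so the library number pairs them and was a block (6 residual degrees of freedom); there the fit shrank the spread of all genes to a common value, which makes p-values small. DESeq2 1.42.0 was an alternative, with scaling, filters, clusters, thinning, cell cycle and left-out libraries. CPM are the UMIs of a gene in 1000000 UMIs of its library. The kept cells of a library held 80059894 to 117890987 UMIs, and counting intervals cover counting error only.

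The members and lists were chosen with earlier results of these data known. Named were the 6 catalytic genes, the 5 largest changes in each direction per comparison, the 2 highest genes per group of subunits, and up to 4 genes per further list by the same criteria. Psma8, and genes listed because a count was small, were chosen after their values were seen. Paaf1 was not analysed here. A gene that this rule names is not reported here. The scripts were tested on simulated data.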

Additional observations from a re-analysis of the deposited data

How the results depend on the processing

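The alternatives were other scalings, DESeq2, filters on cells, genes and doublets, thinning to equal depth, cells with little S and G2M phase RNA, other clusters and leaving out each GMP library. Of the single-gene values, 1706 kept direction and side of the threshold, 102 lost their call, 57 gained one and 11 turned. With total UMIs, 3 proteasome genes were higher and 1 lower in GMP against CMP, and 27 higher and 1 lower in GMP against LMPP. The counts were 22 higher and 4 lower in monocyte-like cells and 3 higher and 32 lower in basophil and mast cell-like cells. In eosinophil-like cells 6 were higher and 20 lower, since that scaling moves all genes. It turned Psmb9 (-0.44) and Psmg2 (-0.17) in GMP against LMPP, Psmd3 (0.33) and Psmd4 (0.28) in basophil and mast cell-like cells, and Psmb4 (0.14), Psmc3 (0.20), Psmd4 (0.24) and Psmg2 (0.0214) in eosinophil-like cells. Leaving out each GMP library gave 8 to 37 higher and 0 to 1 lower genes in GMP against CMP, 5 to 11 lower in monocyte-like cells, 1 to 2 higher in eosinophil-like cells, and 0 to 1 higher and 0 to 1 lower in GMP against CMP within monocyte-like cells. In monocyte-like cells the DESeq2 Wald test called 3 higher and 5 lower, Leiden resolution 0.5 gave 4 lower and resolution 2 gave 5 lower, and cells with little S and G2M phase RNA gave 4 lower. Psmd3 there was -0.0084 at resolution 2 and -0.0208 with undivided counts. In eosinophil-like cells 1 was higher in cells with little S and G2M phase RNA (Psme3 at -0.41) and 1 without a filter on low counts. Without that filter 1 gene was lower in GMP against CMP within monocyte-like cells. Between CMP and LMPP, 8 genes were higher by 1.5-fold in cells with little S and G2M phase RNA. For the other changes than scaling the cause was not tested. Without the replicate block, 1 gene was higher and 0 lower in monocyte-like cells, 0 higher and 39 lower in basophil and mast cell-like cells, and 2 higher and 35 lower in eosinophil-like cells. No paired analysis was possible because CMP and LMPP have 1 library each, for GMP against CMP and GMP against LMPP. The immunoproteasome share averaged 55.0% in GMP with all deposited barcodes and 54.8% in cells with little S and G2M phase RNA.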
